A study of Mus musculus with 10 samples.

Results

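The genes of DNA replication and mitosis were examined in wounds of diabetic mice given a miR-132 mimic or a control mimic. The list named 43 genes, 21 that prepare or carry out DNA replication (called S-phase here) and 22 that act in mitosis (called mitotic). It was matched by gene symbol, keeping for each gene the array feature with the highest mean among those that name it alone. This gave 40 genes of the 30702 with such a feature, 20 S-phase and 20 mitotic members. Mcm7 shared its feature with the microRNA genes Mir25 and Mir93, Foxm1 shared its feature with Tex52, and Ccnb1 was not analysed here. All 40 measured members lay above the level filter of 4.17 (log2 signal), the median over all features of their mean over the arrays, and 0 of them reached the upper signal limit of 19.93.

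All animals were male db/db [BKS(D)-Leprdb/JOrlRj)] mice, whose leptin receptor gene is mutated and which become obese and diabetic. The labels give C57BL/6 as the strain background and an age of 11 weeks, after which the mice were housed singly for a week and wounded. Each mouse had 2 full-thickness wounds on the back, made with a 4 mm punch. A dose of 0.5 nmol mimic in 100 µl was mixed with a transfection carrier and injected at 4 points around each wound straight after wounding, miR-132 in 5 mice and control mimic in 5 others. Wound-edge RNA was taken at day 6 and hybridised to Clariom D arrays, 1 per sample. No wounds without a mimic and no non-diabetic wounds were analysed here. Such tissue mixes epidermis, dermis, leukocytes, fat and muscle, so fewer dividing cells and less RNA per dividing cell cannot be told apart. All 9 basal keratinocyte markers lay above the level filter, with means over the arrays of 6.28 (Lamb3) to 19.92 (Krt14).

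Cells enter S phase when cyclin E and its kinase release E2F factors from the retinoblastoma family. Before that, licensing proteins load the MCM helicase on origins, and in S phase Cdc45 and the GINS complex turn it into a moving fork. Mitotic genes follow in a later wave that depends on the DREAM and MuvB complexes, NF-Y and Foxm1. In healing skin, cell division supplies new keratinocytes behind the migrating epidermal edge as well as fibroblasts, endothelium and some macrophages of granulation tissue. The transcripts are therefore commonly read as a measure of proliferation.

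The treatment is a synthetic copy of the microRNA whose mature sequence, from RefSeq (GRCm38.p6, chr11:75173723-75173744, plus strand), is shown with its seed, bases 2 to 8, in capitals because the seed sets which messages it pairs with.
mmu-miR-132-3p: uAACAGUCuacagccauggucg
The 3 promoters below belong to mitotic members and are shown with their CHR and NF-Y box matches in capitals. The CHR (cell cycle genes homology region, letters TTTGAA) is the element bound by MuvB complexes, and the NF-Y box (letters CCAAT) is bound by NF-Y. Each window runs 5′ to 3′ from 250 bases before to 50 bases after the annotated start, and all 3 genes lie on the minus strand. The windows are chr7:135716330-135716629 for Mki67, chr10:69352863-69353162 for Cdk1 and chr4:118437294-118437593 for Cdc20 (RefSeq, GRCm38.p6).
Mki67: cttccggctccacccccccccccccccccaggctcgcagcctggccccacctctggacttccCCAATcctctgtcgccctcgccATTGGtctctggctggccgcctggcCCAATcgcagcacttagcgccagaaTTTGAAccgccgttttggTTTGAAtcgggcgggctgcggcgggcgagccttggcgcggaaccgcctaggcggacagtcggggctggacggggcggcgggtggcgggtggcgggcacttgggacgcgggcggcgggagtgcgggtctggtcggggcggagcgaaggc
Cdk1: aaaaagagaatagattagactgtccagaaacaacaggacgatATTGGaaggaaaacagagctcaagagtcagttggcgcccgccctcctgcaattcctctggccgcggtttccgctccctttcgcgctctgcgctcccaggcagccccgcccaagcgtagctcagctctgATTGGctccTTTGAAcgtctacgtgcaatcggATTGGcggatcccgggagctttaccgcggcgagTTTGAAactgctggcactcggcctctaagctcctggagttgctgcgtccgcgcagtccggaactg
Cdc20: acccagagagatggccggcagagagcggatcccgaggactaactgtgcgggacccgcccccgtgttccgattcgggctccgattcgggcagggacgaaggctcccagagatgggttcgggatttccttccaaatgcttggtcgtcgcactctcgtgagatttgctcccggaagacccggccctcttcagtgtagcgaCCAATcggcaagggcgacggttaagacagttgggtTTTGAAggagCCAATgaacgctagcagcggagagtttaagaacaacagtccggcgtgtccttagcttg
The next 3 promoters are of S-phase members, with matches to the E2F site in capitals. Its letters were taken as TTTCGCGC, TTTGGCGC, TTTCCCGC or TTTGCCGC. They lie at chr1:20820263-20820562 (Mcm3, minus strand), chr8:75109259-75109558 (Mcm5, plus strand) and chr1:128359656-128359955 (Mcm6, minus strand).
Mcm3: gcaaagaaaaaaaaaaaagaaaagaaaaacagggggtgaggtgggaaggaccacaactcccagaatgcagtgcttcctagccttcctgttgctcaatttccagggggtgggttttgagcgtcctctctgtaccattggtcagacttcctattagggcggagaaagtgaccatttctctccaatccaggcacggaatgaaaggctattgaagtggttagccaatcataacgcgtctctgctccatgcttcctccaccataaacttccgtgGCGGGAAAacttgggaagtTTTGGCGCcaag
Mcm5: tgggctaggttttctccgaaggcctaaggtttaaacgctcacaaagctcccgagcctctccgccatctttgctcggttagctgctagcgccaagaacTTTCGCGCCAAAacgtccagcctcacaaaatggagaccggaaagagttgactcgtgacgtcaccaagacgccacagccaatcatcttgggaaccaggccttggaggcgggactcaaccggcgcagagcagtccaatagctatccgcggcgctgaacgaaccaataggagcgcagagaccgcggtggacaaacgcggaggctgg
Mcm6: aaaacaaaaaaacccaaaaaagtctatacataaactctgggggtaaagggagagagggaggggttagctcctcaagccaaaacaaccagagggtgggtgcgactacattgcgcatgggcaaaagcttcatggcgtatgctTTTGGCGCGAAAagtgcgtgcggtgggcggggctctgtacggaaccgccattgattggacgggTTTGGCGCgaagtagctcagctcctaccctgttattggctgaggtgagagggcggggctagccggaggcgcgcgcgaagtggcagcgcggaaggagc

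Both strands were searched in every window, and matches were counted per gene. Promoter windows were found for 16 S-phase and 17 mitotic members, including Mcm7 and Ccnb1, for which no expression value is given. A CHR match was present in 12 of 17 mitotic windows (70.6%) and in 2 of 16 S-phase members (12.5%), against 17.9% of all 32851 promoter windows of the same length. The S-phase members with it were Mcm2 and Cdc45. All 12 mitotic members with a CHR also held an NF-Y box, a pair found in 6.95% of all windows. The NF-Y box alone occurred in 15 of 17 mitotic and 10 of 16 S-phase members (88.2% and 62.5%), against 37.4% of all windows. E2F letters occurred in 6 of 16 S-phase members (37.5%), namely Cdc6, Cdt1, Mcm3, Mcm5, Mcm6 and Mcm7, and in 1 of 17 mitotic members (5.88%), Cdk1, against 2.26% of all windows. At Mcm5 and Mcm6 matches on opposite strands overlap, and at Mcm7 an E2F match overlaps an NF-Y box. The windows of Ccne1, E2f1, Tyms, Tk1, Birc5 and Nusap1 held none of these letters. A match is a description of the letters, and its absence says nothing about binding.

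**Figure D1:**
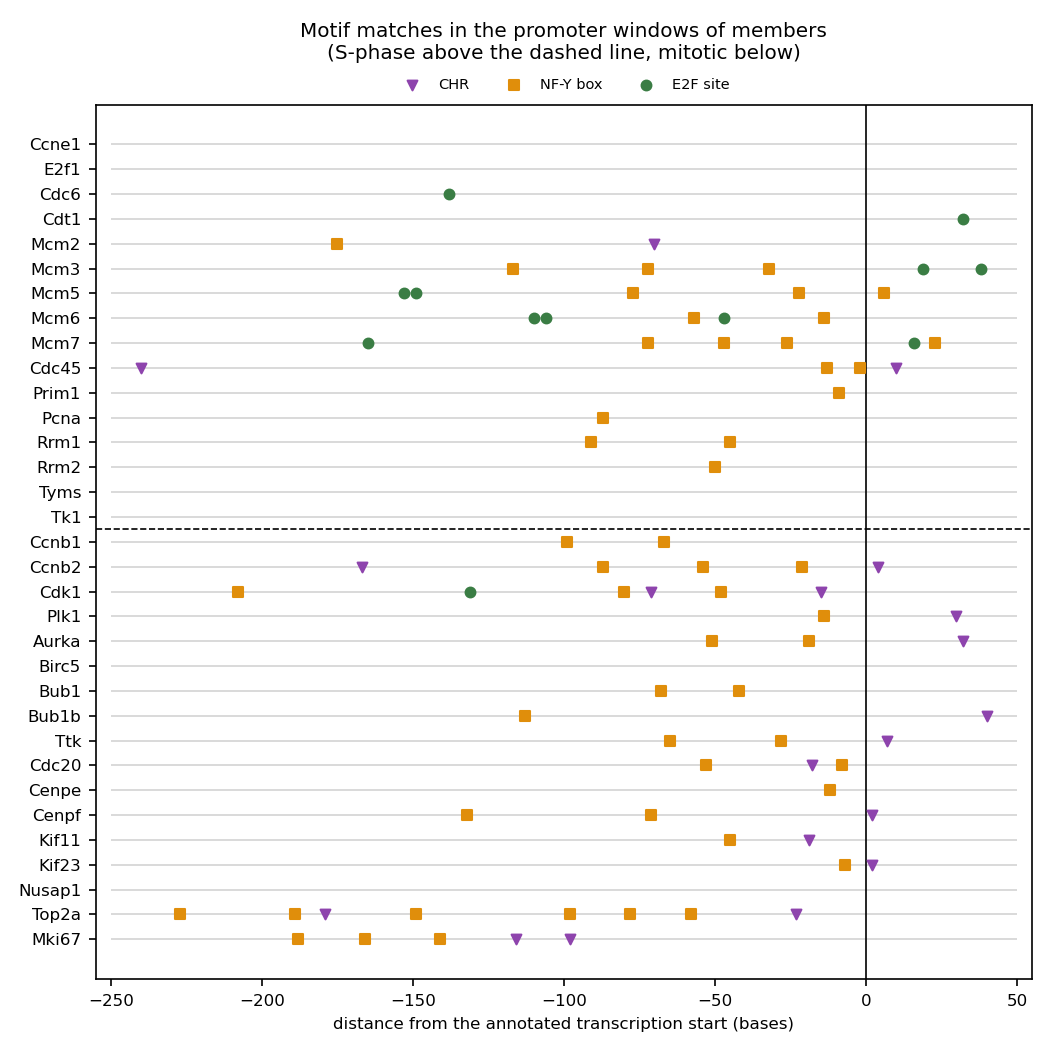
Motif matches in the promoter windows of 33 members, by distance in bases from the annotated transcription start to the leftmost base of the match (triangles CHR, squares NF-Y box, circles E2F site; Mcm7 has 2 annotated starts drawn on 1 line). CHR matches fill the lower, mitotic block (12 of 17), and E2F matches the upper, S-phase block (6 of 16).

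No replication or mitosis gene could be told apart between wounds given miR-132 and wounds given control mimic. Of the 40 members, 0 passed an adjusted p of 0.05 in limma, where 0.0% of the 17633 genes tested did. At an unadjusted p under 0.05 there were 0 members, against 8.06% of all genes tested (5.61% lower and 2.46% higher with miR-132). The smallest unadjusted p of a member was 0.0877, with an adjusted p of 0.657. The groups overlapped for all 40 members, and 0.93% of all genes had groups that did not overlap. With miR-132, 17 members averaged lower and 23 higher, where 53.6% of all genes averaged lower and 45.0% higher. Lower members numbered 9 after a further quantile normalization, 22 with the hybridisation controls as a covariate, 7 without control replicate 4 and 26 without control replicate 2. Without miR-132 replicate 3, 52 genes passed adjustment and 0 of them were members.

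The same counts are given for each class, with no test between the classes. S-phase members averaged lower for 9 and higher for 11 of 20, with a median difference of 0.02 (log2, miR-132 minus control). Mitotic members averaged lower for 8 and higher for 12 of 20, with a median of 0.06. The median over all genes tested was -0.02. Both medians rested on single arrays. Without control replicate 2 they were -0.04 and -0.04, with 13 members of each class lower, and without control replicate 4 they were 0.08 and 0.17, with 6 S-phase and 1 mitotic member lower. Differences ranged from -0.15 (Mcm3 and Tk1) to 0.25 (Ccne2) in S phase and from -0.23 (Cdc20) to 0.28 (Cenpe) in mitosis. For 28 members the difference was no larger than its standard error (SE). In the full fit, the 95% interval of the difference lay within 2-fold, between -1 and 1, for all 40 members. It lay within 0.5 in each direction for only 23, 16 of them S-phase and 7 mitotic. The 2-fold bound does not hold under every alternative. With the hybridisation controls as a covariate, Mki67 stood at -0.44 (SE 0.545), against -0.08 (SE 0.386) in the full fit. Its 95% interval with that covariate therefore reached below -1.

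**Figure D2:**
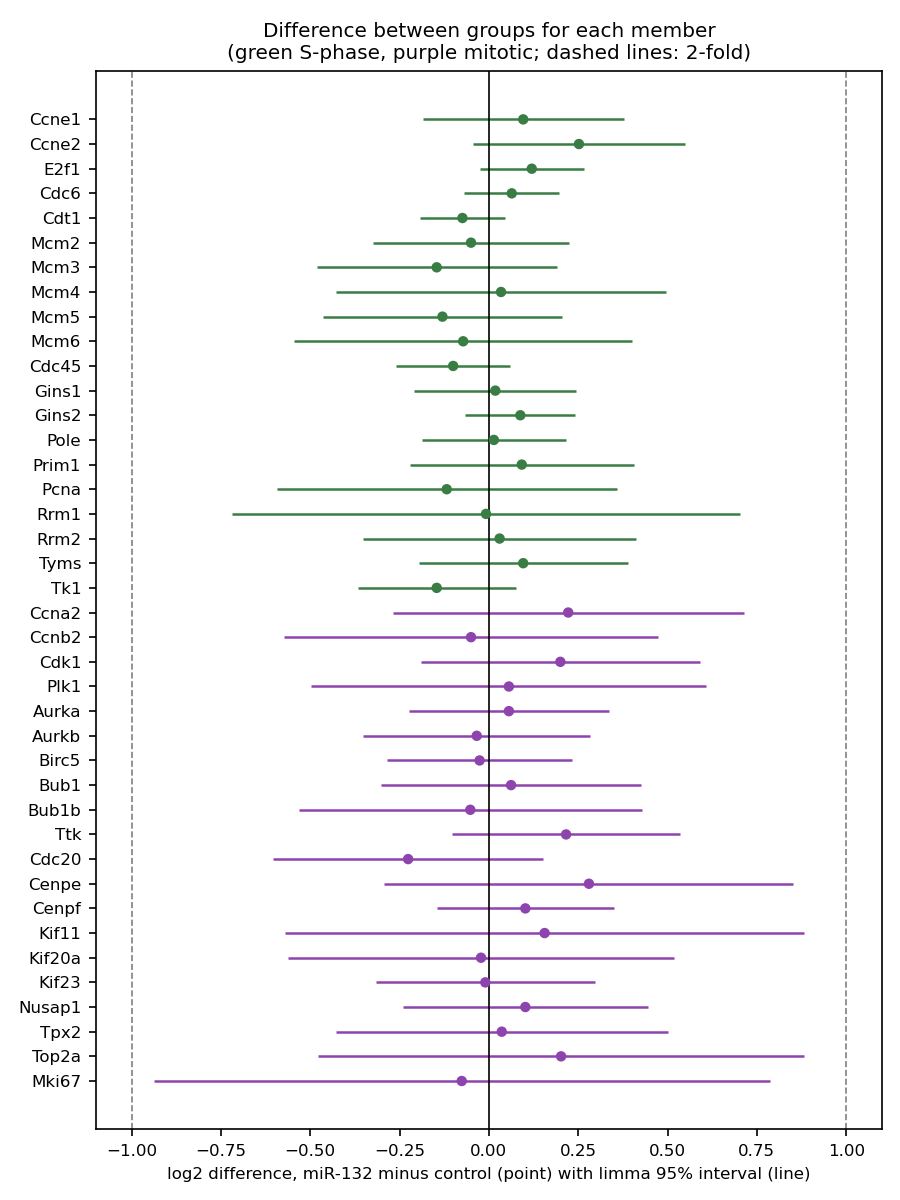
Log2 difference of each of the 40 members, miR-132 minus control (points), with limma's 95% interval (lines), S-phase members in green and mitotic members in purple. All 40 intervals, which are those of the full fit, lie inside the dashed lines that mark 2-fold. Those of Mki67 (-0.94 to 0.79) and Kif11 (-0.57 to 0.88) are among the widest.

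Ccne2 and E2f1 had the smallest p values of the 40 members. Ccne2, a cyclin E that activates Cdk2, measured 6.62, 6.30, 6.18, 6.81 and 6.61 on miR-132 replicates 1 to 5. On control replicates 1 to 5 it measured 6.38, 5.99, 6.38, 6.36 and 6.15. Replicates 1, 4 and 5 of the miR-132 group lay above every control, and the others lay inside the control range. The difference was 0.25 ± 0.13 (SE, n = 5 per group), or 1.19-fold, with limma's adjusted p at 0.657. E2f1, the E2F factor that turns on replication genes, measured 4.65, 4.69, 4.50, 4.77 and 4.78 with miR-132. Its controls read 4.62, 4.64, 4.54, 4.46 and 4.53. Only miR-132 replicate 3 fell inside the control range, yet the difference was 0.12 ± 0.06 (SE, limma's adjusted p of 0.657), or 1.09-fold. The signal of E2f1 was low, with a mean over the arrays of 4.62. Ccne1, the other cyclin E, averaged 5.05 ± 0.24 and 4.95 ± 0.17 (SD, n = 5 each, miR-132 first).

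Among the origin licensing genes, Cdc6 and Cdt1, whose proteins load the helicase, averaged 0.06 and -0.07. They spanned only 1.19-fold and 1.16-fold over all 10 arrays. Mcm2, a subunit of the helicase, read 5.69, 5.80, 5.75, 5.99 and 5.79 with miR-132 and 5.92, 5.61, 5.71, 6.29 and 5.74 in controls. Control replicate 4 was its highest array and control replicate 2 its lowest, so controls enclosed all miR-132 values. Its difference was -0.05 ± 0.12 (SE), and it stood at 0.06 without control replicate 4. The other helicase subunits lay at -0.15 (Mcm3), 0.03 (Mcm4), -0.13 (Mcm5) and -0.07 (Mcm6).

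Genes of the replication fork gave no difference past the test. Cdc45, which joins the helicase as it fires, measured 5.69, 5.76, 5.71, 5.89 and 5.82 with miR-132. In controls it measured 5.91, 5.68, 5.87, 6.04 and 5.87, with replicate 2 the lowest of all 10 arrays. The difference was -0.10 ± 0.07 (SE, limma's adjusted p of 0.728). The GINS subunit genes Gins1 and Gins2 lay at 0.02 and 0.09, Pole, the leading-strand polymerase, at 0.01 and Prim1, the primase subunit, at 0.09. Pcna, the sliding clamp, read 9.87, 9.22, 9.37, 10.14 and 9.69 with miR-132 and 10.06, 9.38, 9.60, 10.08 and 9.76 in controls. Replicate 2 was the lowest array of each group and replicate 4 the highest, and the miR-132 arrays enclosed all controls. Its difference was -0.12 ± 0.21 (SE).

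Enzymes of nucleotide supply gave none either. Tk1, thymidine kinase, measured 5.15, 5.22, 5.35, 5.39 and 5.28 with miR-132 and 5.48, 5.23, 5.26, 5.75 and 5.40 in controls. All miR-132 arrays lay below the control mean, and the control range overlapped them from replicates 2 and 3. The difference was -0.15 ± 0.10 (SE, limma's adjusted p of 0.716). Rrm1, the large subunit of ribonucleotide reductase, spanned 3.25-fold over the arrays, from 8.63 on miR-132 replicate 2 to 10.33 on miR-132 replicate 4, while its groups averaged 9.32 and 9.33. The small subunit gene Rrm2 lay at 0.03 and Tyms, thymidylate synthase, at 0.10.

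Cyclins and kinases of mitotic entry followed. Cdk1, the kinase that drives mitosis, measured 6.15, 6.00, 6.29, 6.61 and 6.65 with miR-132. Controls measured 6.35, 5.89, 5.97, 6.58 and 5.91. Replicates 4 and 5 of the miR-132 group stood above every control, though only narrowly, and the difference was 0.20 ± 0.17 (SE, limma's adjusted p of 0.788). Its partners Ccna2 (cyclin A2) and Ccnb2 (cyclin B2) lay at 0.22 and -0.05. The mitotic kinase genes Plk1, Aurka and Aurkb lay at 0.06, 0.06 and -0.03, and Birc5, which encodes the Aurora B partner survivin, at -0.03.

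Spindle checkpoint genes gave both the mitotic member with the smallest p and the lowest difference. Ttk, the kinase that starts checkpoint signalling, read 6.47, 6.19, 6.40, 6.63 and 6.46 with miR-132 and 6.28, 5.90, 6.14, 6.69 and 6.06 in controls. Control replicate 4 was the highest array, and 4 miR-132 arrays lay above the other controls. The difference was 0.22 ± 0.14 (SE, limma's adjusted p of 0.712), or 1.16-fold. It was 0.34 without control replicate 4, still with an adjusted p of 0.828. Cdc20, the activator of the anaphase-promoting complex, read 4.74, 4.81, 5.42, 5.15 and 5.19 with miR-132 and 5.40, 5.05, 5.00, 5.73 and 5.26 in controls. Replicates 1 and 2 of the miR-132 group were its lowest arrays, and the other 3 lay inside the control range. The difference was -0.23 ± 0.17 (SE, limma's adjusted p of 0.744). The checkpoint genes Bub1 and Bub1b lay at 0.06 and -0.05.

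Of the kinetochore, motor and chromosome genes, Mki67, Kif11, Top2a and Cenpe spanned 2.53-fold to 3.39-fold over the arrays, while Cenpf spanned 1.45-fold. Cenpe, a kinetochore motor, measured 6.99, 6.44, 7.26, 7.33 and 7.17 with miR-132. Controls measured 7.06, 6.01, 6.78, 7.35 and 6.59. The lowest control was replicate 2, the highest was replicate 4, and all miR-132 arrays lay between them. The difference was 0.28 ± 0.26 (SE, limma's adjusted p of 0.790). Top2a, which untangles sister chromatids, read 9.12, 8.48, 9.42, 9.70 and 9.15 with miR-132 and 9.19, 8.38, 8.92, 9.81 and 8.56 in controls. Again the controls enclosed every miR-132 array, with a difference of 0.20 ± 0.30 (SE). Mki67, the antigen used to stain dividing cells, read 10.75, 10.08, 11.50, 11.71 and 10.91 with miR-132. In controls it read 11.58, 10.23, 11.06, 11.84 and 10.62. It spanned 3.39-fold over the arrays, the widest of the 40 members, while the groups averaged 10.99 ± 0.65 and 11.07 ± 0.66 (SD, n = 5 each). Its 95% interval ran from -0.94 to 0.79 around a difference of -0.08, and the sign turned without miR-132 replicate 2 (0.15) or control replicate 4 (0.12). The remaining members were Cenpf, a kinetochore protein, at 0.10, the spindle motor Kif11 at 0.16, the midzone motors Kif20a and Kif23 at -0.02 and -0.01, and the spindle proteins Nusap1 and Tpx2 at 0.10 and 0.04.

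**Figure D3:**
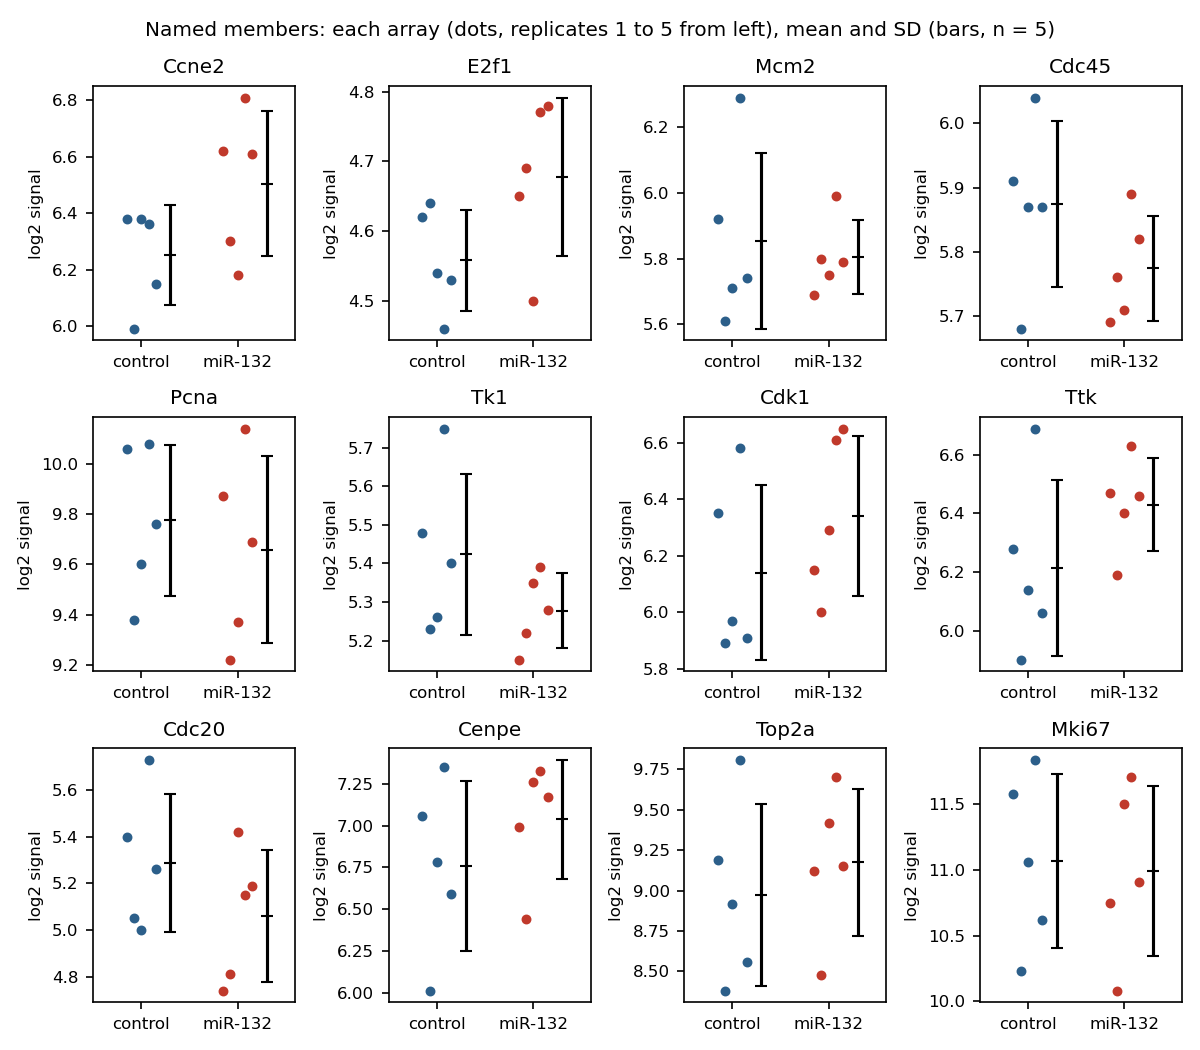
Log2 signal of 12 members on each array (dots, replicates 1 to 5 from left, control blue and miR-132 red) with group mean and SD (bars, n = 5); each panel has its own axis, not starting at 0. The groups overlap in all 12 panels, and control replicate 4 (the fourth blue dot) is the highest array for Mcm2, Cdc45, Tk1, Ttk, Cdc20, Cenpe, Top2a and Mki67.

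The members varied between animals of the same group, and they did so together. Their range over the 10 arrays was 1.71-fold in the median, and above 2-fold for 11 members. Either miR-132 replicate 4 or control replicate 4 was the highest array for 36 of 40 members, and both were among the top 3 for 31. Either miR-132 replicate 2 or control replicate 2 was the lowest for 30. Control replicate 2 was the lowest for 8 S-phase and 14 mitotic members, and miR-132 replicate 2 for 6 S-phase and 2 mitotic members. Control replicate 4 alone was the highest for 18 of 20 mitotic but 9 of 20 S-phase members, and miR-132 replicate 4 for 8 S-phase and 1 mitotic member. The labels do not say that a replicate number marks a shared day or cage. The standard deviation was larger in controls than with miR-132 for 30 of 40 members. The median SD within groups was 0.32 for mitotic members, 0.21 for S-phase members and 0.22 for all genes tested. Median signal levels also differed, at 6.44, 5.83 and 6.09 in the same order. Whether level has a part in the spread of each class was not tested.

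**Figure D4:**
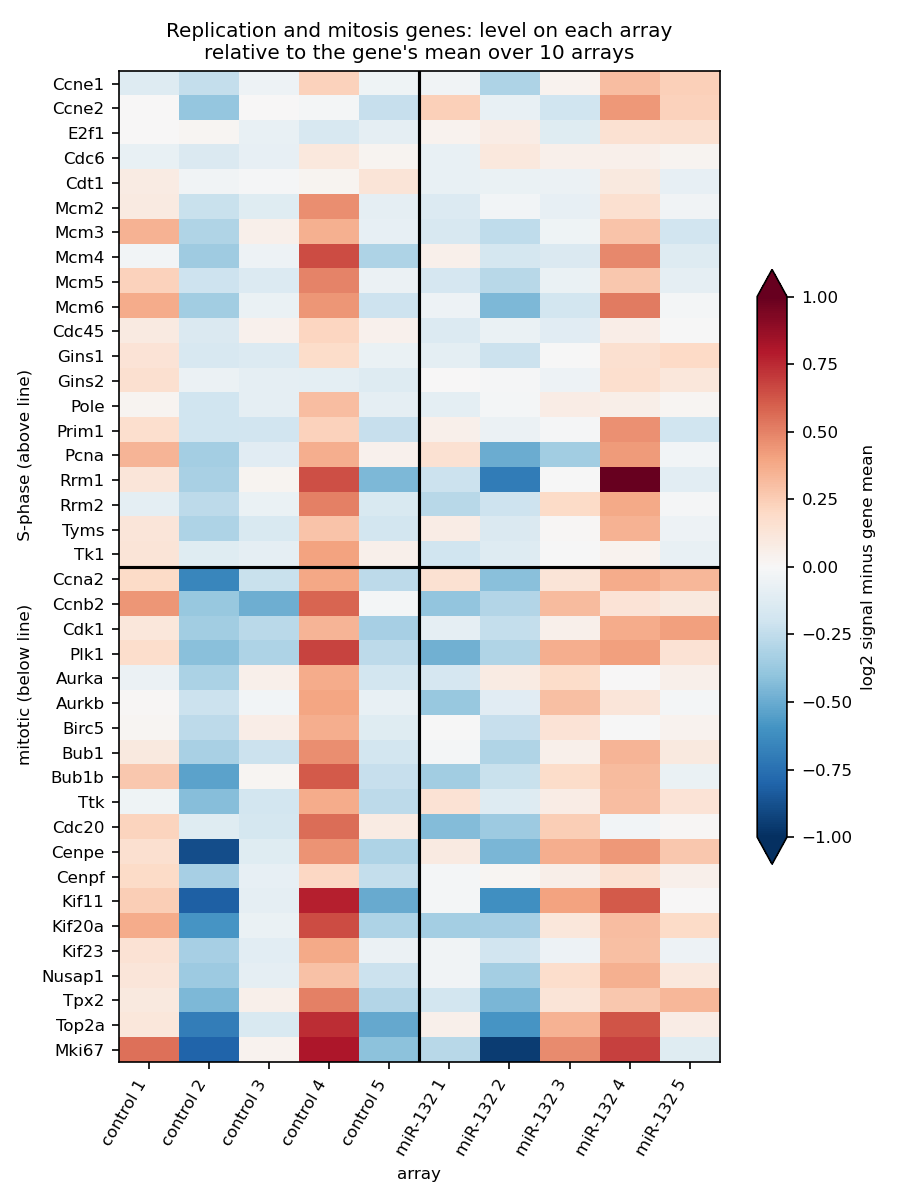
Log2 signal of the 40 members on each array minus the member's mean over the 10 arrays (red above, blue below), with S-phase members above and mitotic members below the horizontal line, and control arrays to the left of the vertical line. Columns for replicate 4 of each group are red and those for replicate 2 blue through most of both blocks; E2f1, Cdc6 and Cdt1 hardly vary.

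This shared movement was measured with group means removed. Over the 10 arrays, mitotic members correlated with each other at a median Pearson r of 0.85 (190 pairs, lowest 0.54). The median was 0.68 for S-phase pairs (lowest -0.39) and 0.75 between S-phase and mitotic members (400 pairs), against 0.05 over all pairs of genes tested. These are descriptions over arrays that share labelling and normalization. Each member was also set against the mean of the others. The closest were Bub1 (r = 0.98) and Top2a, Kif11, Nusap1 and Mcm5 (each 0.97), and Mki67 stood at 0.94. E2f1 (-0.18), Gins2 (0.39), Cdt1 (0.44) and Cdc6 (0.46) followed the rest least, and these 4 also had narrow ranges of 1.16-fold to 1.25-fold. Their signal was low, with means over the arrays of 4.62, 5.15, 4.66 and 4.53 in the same order. Ccne1, Gins1 and Birc5 were also low, at 5.00, 4.67 and 4.35, but followed the rest more closely (r = 0.81, 0.87 and 0.84). Whether level has a part in these correlations and ranges was not tested.

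The balance of mitotic and S-phase members was compared as the mean of the mitotic members minus the mean of the S-phase members on each array. It was 0.48, 0.42, 0.82, 0.57 and 0.67 on miR-132 replicates 1 to 5 and 0.63, 0.32, 0.52, 0.78 and 0.43 on control replicates 1 to 5. The highest value was on miR-132 replicate 3 and the lowest on control replicate 2, and 4 of 5 miR-132 values lay within the control range. Group means were 0.59 ± 0.16 with miR-132 and 0.54 ± 0.18 in controls (SD, n = 5 each). They differed by 0.06, less than the spread within either group, and by -0.04 with the hybridisation controls as a covariate. Only comparisons between arrays are meaningful here, since probes of different genes are not on a common level scale. S-phase members averaged 6.16 ± 0.18 and 6.15 ± 0.20 and mitotic members 6.75 ± 0.26 and 6.69 ± 0.37 (SD, n = 5 each, miR-132 first).

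**Figure D5:**
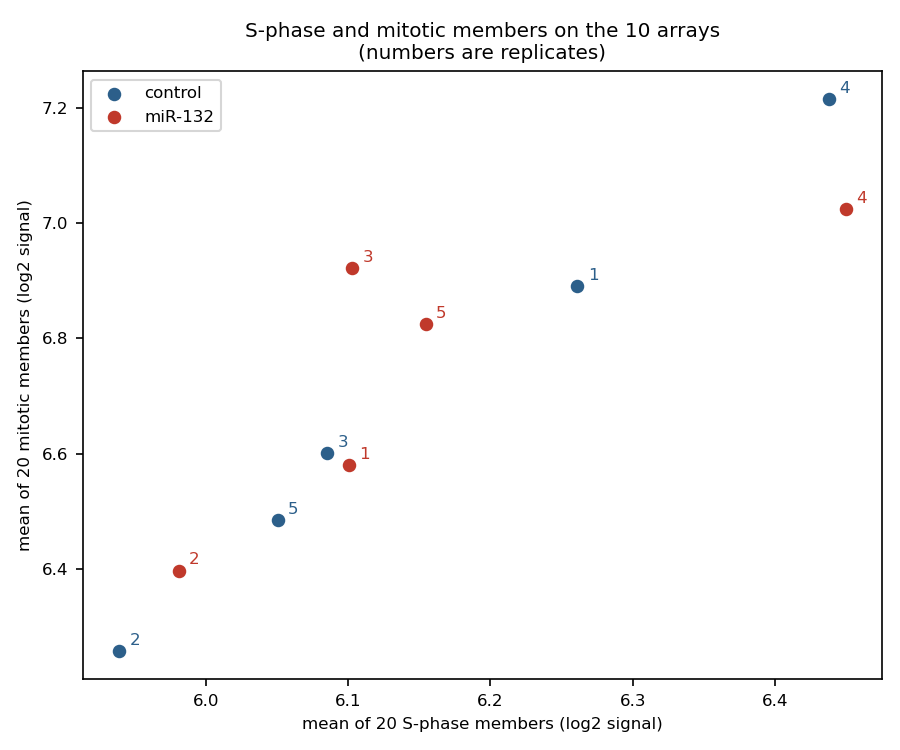
Mean log2 signal of the 20 S-phase members (horizontal) and of the 20 mitotic members (vertical) on the 10 arrays (blue control, red miR-132, numbers give the replicate). Both groups spread along the same line from replicate 2 at the lower left to replicate 4 at the upper right; miR-132 replicate 3 has the highest mitotic level for its S-phase level (a balance of 0.82).

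The other genes of these pathways are given by list, and whether a list differs from the members was not tested. Of all genes tested, 53.6% averaged lower, 45.0% averaged higher and 8.06% had an unadjusted p under 0.05. Of 31 tested genes among the other replication genes, 26 averaged higher with miR-132 and 5 lower, with a median of 0.05, and 1 had an unadjusted p under 0.05. That gene was Gmnn, whose product geminin blocks Cdt1, at 0.23 ± 0.08 (SE, limma's adjusted p of 0.597). Next by p were Gins3, a GINS subunit, at 0.14 and Dut, which removes dUTP, at 0.11. Of 46 other mitosis genes, 35 averaged higher and 11 lower, with a median of 0.10 and 0 at an unadjusted p under 0.05. The smallest p values were those of Cks2, a Cdk1 subunit, at 0.19, the motor Kif18a at 0.20 and the kinetochore gene Nuf2 at 0.33. Genes of G1 entry and of the Rb-E2F network averaged lower for 15 of 22, with a median of -0.08. Of these 22 genes, 3 had an unadjusted p under 0.05 and a lower average, against 5.61% of all genes tested. These were Cdk6, a kinase of G1, at -0.43 ± 0.16, E2f8, a repressor E2F, at -0.42 ± 0.17, and Lin54, the MuvB subunit that binds the CHR, at -0.23 ± 0.10 (SE). Of all these genes, 0 passed adjustment (limma's lowest adjusted p of 0.597).

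Cell type markers also differed between arrays and groups. Directions are counted without probes at the signal limit on any array, where the sign of a difference is not known, and 53.6% of all genes averaged lower. The 8 macrophage markers averaged 11.91 on miR-132 replicate 4 and 11.30 on control replicate 4, where the members were high, and 10.77 and 10.44 on replicate 2 of each group, where they were low. They spanned 10.66 to 11.91 in the miR-132 group and 10.44 to 11.71 in the control group, with 4 of 8 averaging lower. Control replicates 1 (11.71) and 5 (11.46) were higher for these markers than control replicate 4, and the members were low on control replicate 5. On control replicate 4, Csf1r, Itgam and Ccr2 lay above their control means, and Adgre1, Cd68, Mrc1, C1qa and C1qb lay below theirs. The 6 skeletal muscle markers ran opposite to the members on replicates 4 and 2, at 10.38 and 10.53 on replicate 4 and at 13.46 and 12.78 on replicate 2 (miR-132 first). Other arrays did not follow this. On miR-132 replicate 5 muscle was also low (10.67), with the S-phase members at 6.15, near their group mean of 6.16. Control replicate 3 had the highest muscle mean of the controls (13.38), while the members were lowest on control replicate 2. Of the skeletal muscle markers, 6 of 6 averaged lower with miR-132. They spanned 10.38 to 13.46 in the miR-132 group and 10.53 to 13.38 in the control group. Neutrophil markers, 6 of 6 lower on average without S100a8 and S100a9, were highest on control replicate 4 (11.69) over a range of 9.63 to 11.69 in controls and 9.81 to 10.46 with miR-132. Wound-activated keratinocyte markers, 5 of 5 lower without Krt16 and 4 of them at an unadjusted p under 0.05, spanned 12.38 to 14.41 (miR-132) and 13.61 to 14.30 (control). Basal keratinocyte markers, 7 of 7 lower on average without Krt5 and Krt14, had 1 at an unadjusted p under 0.05, Trp63 at -0.68. They spanned 10.40 to 11.13 (miR-132) and 10.64 to 11.65 (control), and replicate 4 was the lowest array of each group. The highest control was replicate 2, but the highest miR-132 array was replicate 1. Differentiated keratinocyte markers, 6 of 8 lower without Krt1 and Krt10, had 2 at an unadjusted p under 0.05, Tgm1 at -1.87 and Tgm3 at -1.90, and spanned 13.40 to 14.73 (miR-132) and 13.65 to 15.06 (control). Adipocyte markers, 6 of 6 higher on average, spanned 8.17 to 11.29 (miR-132) and 8.16 to 10.57 (control). Fibroblast markers, with 4 of 7 lower and 3 higher, spanned 14.59 to 15.85 (miR-132) and 15.04 to 15.45 (control). Their highest array was miR-132 replicate 4, while control replicate 4 was the lowest control. Endothelial markers, with 5 of 7 lower and 1 higher, spanned 6.32 to 7.37 (miR-132) and 6.72 to 7.31 (control). No marker passed adjustment, and the spans of list means include the probes at the limit. Of 12 markers of growing hair follicles, whose matrix divides, 4 lay above the level filter, 1 lower and 3 higher on average. These 4 (Krt25, Krt27, Krt71 and Tchh) were highest on replicate 5 of each group, with Krt71 at 6.76 (miR-132) and 5.65 (control). List means spanned 3.99 to 4.79 (miR-132) and 3.84 to 4.65 (control). T and NK cell markers lay near the level filter, at list means of 4.15 to 4.37 (miR-132) and 4.06 to 4.20 (control). The part of tissue makeup in the spread of the members was not tested.

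The signal range of an array was taken between a low and a high percentile of its features, not between their extremes. It was 4.81 to 5.03 in controls and 4.41 to 4.92 with miR-132, narrowest on miR-132 replicates 2 (4.41) and 5 (4.63). The hybridisation controls averaged 10.43 to 10.61 in controls and 10.57 to 10.98 with miR-132. Without miR-132 replicates 2 and 5, the S-phase and mitotic medians were 0.05 and 0.12, and 9 of 40 members averaged lower.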

How the data were processed

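The data were 10 Clariom D arrays, 5 per group. The authors ran RMA in Affymetrix Expression Console 1.4, per the submitters' processing notes (background correction, normalization between arrays, summary per transcript cluster). The deposited arrays nevertheless differed in distribution, with medians over all features of 4.10 to 4.31 and 338 to 430 features at the upper limit. Why they differed was not tested. The deposited values run from 1.77 to 19.93 and were read as log2 signal; no label states the scale. The genome build of the features: not given in the sources used here. All 10 value columns matched a sample, and 0 pairs of arrays were identical. Features were named from the platform annotation, with symbols updated through RefSeq (GRCm38.p6); of 72688 features, 31258 name 1 gene and 1492 several. limma 3.58.1 in R 4.3.3 (lmFit, eBayes with intensity trend, two-sided, Benjamini-Hochberg, threshold 0.05) was fitted to 17633 genes with means above 4.17. On simulated arrays with this spread and 17633 genes, it called 76% of 2-fold and 89% of 4-fold changes together with 12 unchanged genes, and 0 genes when nothing changed. The simulation lowered 200 genes picked at random and gave each gene independent normal noise. Its rates therefore do not describe the members, which vary together.

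Members, lists and alternatives were chosen with earlier results of these data known. Array values are given for the 4 members of each class with the smallest p and for Mki67, Top2a, Cdk1, Pcna, Mcm2 and E2f1 (the rule also named Ccnb1 and Foxm1, which lack a value), and the 3 smallest p name genes of each other list. Motif matches used RefSeq promoter windows. Alternatives were no level filter, quantile normalization, median centring, the hybridisation controls as a covariate, single arrays or miR-132 replicates 2 and 5 left out, a replicate block, no intensity trend, array weights with robust eBayes, and the mean over a gene's features. The number of arrays limits the precision. The labels give 5 mice per group; no source used here says if the wounds of a mouse were pooled.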

Additional observations from a re-analysis of the deposited data

Results flagged for a closer look

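Among the 40 members and the list means, 86 groups of 5 arrays were checked for an array that stands apart, a test that picks about 1 in 20 groups by chance, and 3 had such an array. Cdt1 stood at 4.75 on miR-132 replicate 4, against 4.57 to 4.60 on the rest of its group. Gins2 stood at 5.31 on control replicate 1, against 5.02 to 5.09 elsewhere in the control group. For Rrm2, control replicate 4 gave 7.32, where its group otherwise lay at 6.55 to 6.75.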

How the results depend on the processing

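No alternative gave a member an adjusted p under 0.05 (the lowest was 0.243, E2f1 without miR-132 replicate 3). Under the 19 alternatives run, the S-phase median ran from -0.08 to 0.08, the mitotic median from -0.04 to 0.17 and their balance from -0.04 to 0.12. Each changed sign under some alternatives. All moves were smaller than the SD between arrays, but leaving out a single array can hardly shift a group mean by that much. The size of the moves therefore does not show that these values are stable. Over all genes, 0 passed adjustment except without miR-132 replicate 3, where 52 did (0 to 52 over single arrays left out). The full fit gave 1422 genes at an unadjusted p under 0.05. Members at an unadjusted p under 0.05 numbered 0 in the full fit and 0 to 2 with single arrays left out. They numbered 2 after quantile normalization (Ccne2 and Ttk), 1 after median centring (Ccne2) and 1 with array weights (Ccne2). Members averaging lower numbered 17 in the full fit, 7 (without control replicate 4) to 26 (without control replicate 2) with single arrays left out, 9 after quantile normalization, 9 without miR-132 replicates 2 and 5, and 8 with array weights. The causes were not tested. Signs turned for Mki67 to 0.06 after quantile normalization, 0.25 without both narrow-range arrays, 0.11 with array weights and up to 0.15 with single arrays left out (lowest -0.28). They turned for Pcna to 0.04 after quantile normalization and 0.02 without both narrow-range arrays, and for Mcm2 to 0.01 after quantile normalization, 0.02 with hybridisation controls as covariate and 0.00 with array weights (-0.11 to 0.06 with single arrays left out). The hybridisation controls were higher on 3 miR-132 arrays, so that covariate and treatment overlap. Replicate numbers are shared between groups, but same-numbered arrays correlated at -0.03 to 0.16 over all genes, and 2 of 10 arrays correlated best with their own number, so the numbers were not taken as pairs. With the replicate block, 1 member (Ttk, 0.22) had an unadjusted p under 0.05, 0 genes passed adjustment, and 1270 genes had an unadjusted p under 0.05. The block lowered the SE of Mki67 from 0.386 to 0.215, of Top2a from 0.305 to 0.158 and of Cenpe from 0.256 to 0.128. For Pcna it fell from 0.213 to 0.116. The SE of Cdc20 hardly changed (0.169 and 0.168), and that of E2f1 rose from 0.0648 to 0.0717. Whether the numbers pair the arrays for the members alone was not tested.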
